A study of Mus musculus with 9 samples.

Results

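The genes described here encode the proteins of the large (60S) subunit of the cytoplasmic ribosome. They are 45 genes, Rpl3 to Rpl41 and Rplp0 to Rplp2, listed by name from the nomenclature of the subunit. The list was chosen with earlier results of these data known, so counts over it are descriptions. All 45 were among the 23412 gene symbols of the deposited table, and all 45 passed the filter on low values that left 14336 genes for testing. Their expression was measured by bulk RNA sequencing of the mouse hippocampus at postnatal day 21. The unit is TPM, a relative abundance that divides reads by transcript length and gives every library the same total, so levels of different genes can be compared.

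The study compared 3 groups of wild-type mice, with 3 libraries each. PFOS P1-7 pups received perfluorooctane sulfonate (PFOS), a persistent fluorinated surfactant, through milk on postnatal days 1 to 7. PFOS P8-14 pups received it through milk on days 8 to 14. In both, the nursing dams were gavaged with 1 mg/kg of PFOS each day, so the dose that reached a pup is set by lactation and is not given in the labels. The control pups were labelled sham and sampled at the same age. The labels do not say whether the 3 libraries of a group came from separate animals or litters, so the p-values measure only the spread between these samples, which may be technical.

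The 60S subunit joins amino acids in the peptidyl transferase centre, passes the growing chain through an exit tunnel, and recruits elongation factors with a flexible lateral stalk. Most of its proteins are small, basic and present once in each ribosome, and their genes are among the most highly transcribed in every tissue. Their mRNAs begin with a short run of pyrimidines, the terminal oligopyrimidine (TOP) tract, through which the kinase mTORC1 and the RNA-binding protein Larp1 control their translation. In neurons, ribosomes in dendrites and near synapses supply local protein synthesis. Loss of 1 copy of some of these genes causes Diamond-Blackfan anaemia in humans.

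Sampled tissue and library quality were read from the same table. All 10 hippocampal marker genes were detected in every library, the lowest being Zbtb20 at 1.35 TPM or more. Choroid plexus, a neighbouring secretory tissue, differed between libraries: its transthyretin gene Ttr was at 9446 to 11626 TPM in 5 libraries (PFOS P1-7 replicates 1 and 3, PFOS P8-14 replicates 1 and 2, control replicate 3) and at 35.1 to 107.7 TPM in the other four. The high level was thus found in 2 of 3 libraries of each exposed group and in 1 of 3 control libraries. Hba-a1, an alpha-globin gene of red blood cells, was listed at 0 in PFOS P8-14 replicate 1 and control replicate 1. It was also low in PFOS P1-7 replicate 1, at 55.9 TPM, and at 400.5 to 2333 TPM in the libraries numbered 2 and 3. Hba-a2, also an alpha-globin gene, was at its highest where Hba-a1 was at 0, at 1515 TPM in PFOS P8-14 replicate 1 and 1835 TPM in control replicate 1. In the other libraries it was at 498.1 to 1293 TPM, so the 0 does not mean that alpha-globin mRNA was absent. The sum of 8 myelin genes was 13233 to 18936 TPM in PFOS P1-7, 14719 to 15758 TPM in PFOS P8-14 and 9668 to 15912 TPM in control, with the lowest sum in control replicate 1. Sequencing depth cannot be read from TPM and is unknown. In RNA from whole tissue, fewer cells of a type and less RNA per cell cannot be told apart.

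Large subunit mRNAs took a smaller share of the TPM in both exposed groups than in 2 of the 3 control libraries. The 45 genes together made up 3.17, 3.23 and 3.38% of all TPM in PFOS P1-7, 3.12, 3.54 and 3.32% in PFOS P8-14, and 3.32, 4.60 and 4.35% in control. The mean share was 3.26 ± 0.108% in PFOS P1-7, 3.33 ± 0.21% in PFOS P8-14 and 4.09 ± 0.679% in control (SD, n = 3 each). Control replicates 2 and 3 lay above all 6 exposed libraries, and control replicate 1 lay among them, so the groups overlapped. The 34 small subunit genes, which encode the partner subunit, showed the same arrangement of libraries, with 2.75, 2.75 and 2.80% in PFOS P1-7, 2.69, 2.99 and 2.83% in PFOS P8-14, and 2.93, 3.84 and 3.63% in control. The ratio of the large to the small subunit sum was 1.18 ± 0.0277 in PFOS P1-7, 1.17 ± 0.0106 in PFOS P8-14 and 1.18 ± 0.0373 in control.

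**Figure D1:**
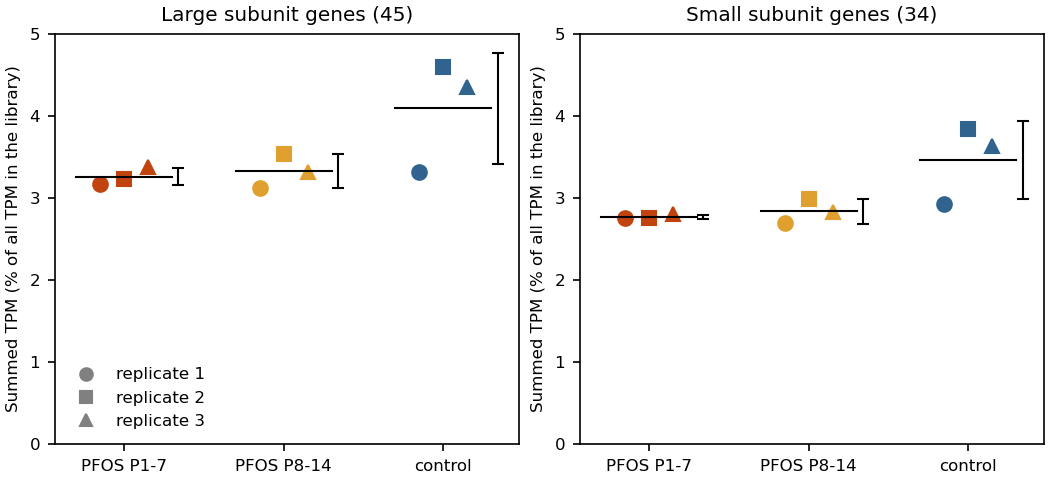
Share of all TPM (percent, vertical axis) taken by the 45 large subunit genes (left) and the 34 small subunit genes (right), 1 point per library, with the group mean as a line and the SD as a bar beside it. In both panels control replicates 2 and 3 stand above the 6 exposed libraries, while control replicate 1 stands at 3.32% for the large subunit, within the exposed range of 3.12 to 3.54%.

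Gene by gene, almost the whole subunit was lower in each exposed group, by a modest amount, and no single gene passed the test. In PFOS P1-7 against control, 44 of 45 members had a log2 difference below 0, beside 34.5% of all tested genes. Their median log2 difference was -0.29, beside 0.09 over all tested genes, and the members ranged from -0.76 (Rpl26) to 0.01 (Rpl4). Rpl26 shares reads with a near-identical copy, as described further on, and the next lowest was Rplp1 at -0.67. No member was called in either direction by limma at an adjusted p below 0.05, and 0% of all tested genes were; the smallest adjusted p among members was 0.181. At an unadjusted p below 0.05, 17 of 45 members were lower, beside 5.79% of all tested genes, and 0 were higher, beside 12.5% of all tested genes. The count of 17 depended on single libraries. Leaving out control replicate 1 gave 38, leaving out control replicate 2 gave 9, and leaving out PFOS P1-7 replicate 2 gave 11. Shares of all tested genes at that threshold are not given for these fits, so these counts stand without a background. Without control replicate 1, limma called 31 of 45 members lower at an adjusted p below 0.05, beside 4.48% of the genes then tested, and the median member difference was -0.43. Without control replicate 2 the median was -0.18. Array weights, which let limma give less weight to libraries that deviate, led to 28 members called lower, beside 5.32% of all tested genes.

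PFOS P8-14 against control gave a similar picture of small differences in 1 direction. A log2 difference below 0 was found in 43 of 45 members, beside 37.9% of all tested genes. The median over members was -0.25, beside 0.06 over all tested genes, and the range was -0.77 (Rpl26) to 0.05 (Rpl7a), with Rplp1 the next lowest at -0.64. limma called no member and 0% of all tested genes at an adjusted p below 0.05, and the smallest adjusted p among members was 0.424. At an unadjusted p below 0.05, 16 members were lower, beside 4.65% of all tested genes, and 0 were higher, beside 6.33%. Leaving out 1 control changed that count to 38 (replicate 1), 7 (replicate 2) or 8 (replicate 3), and leaving out 1 exposed library to 10 (PFOS P8-14 replicate 1) or 8 (PFOS P8-14 replicate 3). For these fits too, shares of all tested genes at that threshold are not given. Without control replicate 1, limma called 24 members lower at an adjusted p below 0.05, beside 3.41% of the genes then tested. Over the members the median was -0.39 when control replicate 1 was left out and -0.14 when control replicate 2 was. With array weights 17 members were called lower, beside 2.79% of all tested genes. Both comparisons share the same 3 control libraries, so their values are not independent of each other.

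**Figure D2:**
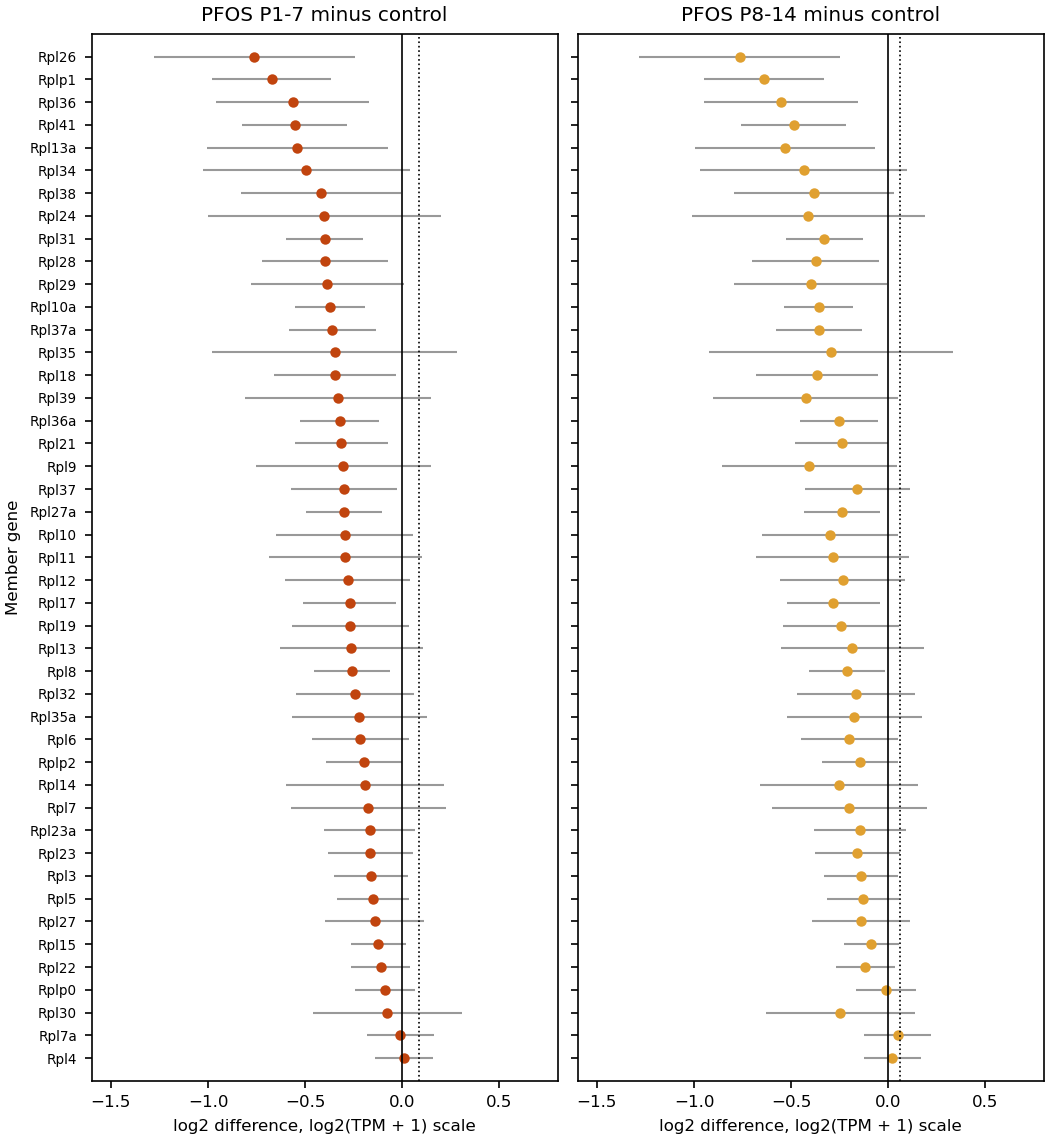
Log2 difference on the log2(TPM + 1) scale of each of the 45 genes (points, horizontal axis) with its 95% confidence interval (line), for PFOS P1-7 minus control (left) and PFOS P8-14 minus control (right). The solid line marks 0 and the dotted line the median of all tested genes (0.09 and 0.06); 44 and 43 of the 45 points lie left of 0, and the intervals of 17 and 16 do not reach it.

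The libraries behind these differences fell into 2 patterns. In 9 genes each control library was above each of the 6 exposed libraries, beside 3.44% of all tested genes: Rpl8, Rpl10a, Rpl26, Rpl27a, Rpl31, Rpl36a, Rpl37a, Rpl41 and Rplp1. Rpl26 is among these 9 only as listed alone, since the sum with its copy overlapped between groups. In 30 genes control replicates 2 and 3 were above all 6 exposed libraries and control replicate 1 was not, beside 7.35% of all tested genes. The remaining 6 were Rpl4, Rpl7a, Rpl15, Rpl30, Rpl37 and Rplp0. The mirror arrangement had control replicates 2 and 3 below all 6 exposed libraries and control replicate 1 not. It was found in 0 members and in 23.6% of all tested genes, so these control libraries also stood apart in many other genes. Control replicate 1 lay within the range of the exposed libraries in 27 genes, above it in 11 and below it in 7. Each PFOS P1-7 library was below each control in 12 genes (6.56% of all tested genes) and each PFOS P8-14 library in 11 (5.99% of all tested genes), with 9 in both. No member had an exposed group wholly above control, beside 12.3% of all tested genes in PFOS P1-7 and 7.31% in PFOS P8-14. The libraries numbered 1 also stood apart inside their own groups: in 19 of 45 members replicate 1 was the lowest library of PFOS P1-7, of PFOS P8-14 and of control at once, beside 8.59% of all tested genes.

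**Figure D3:**
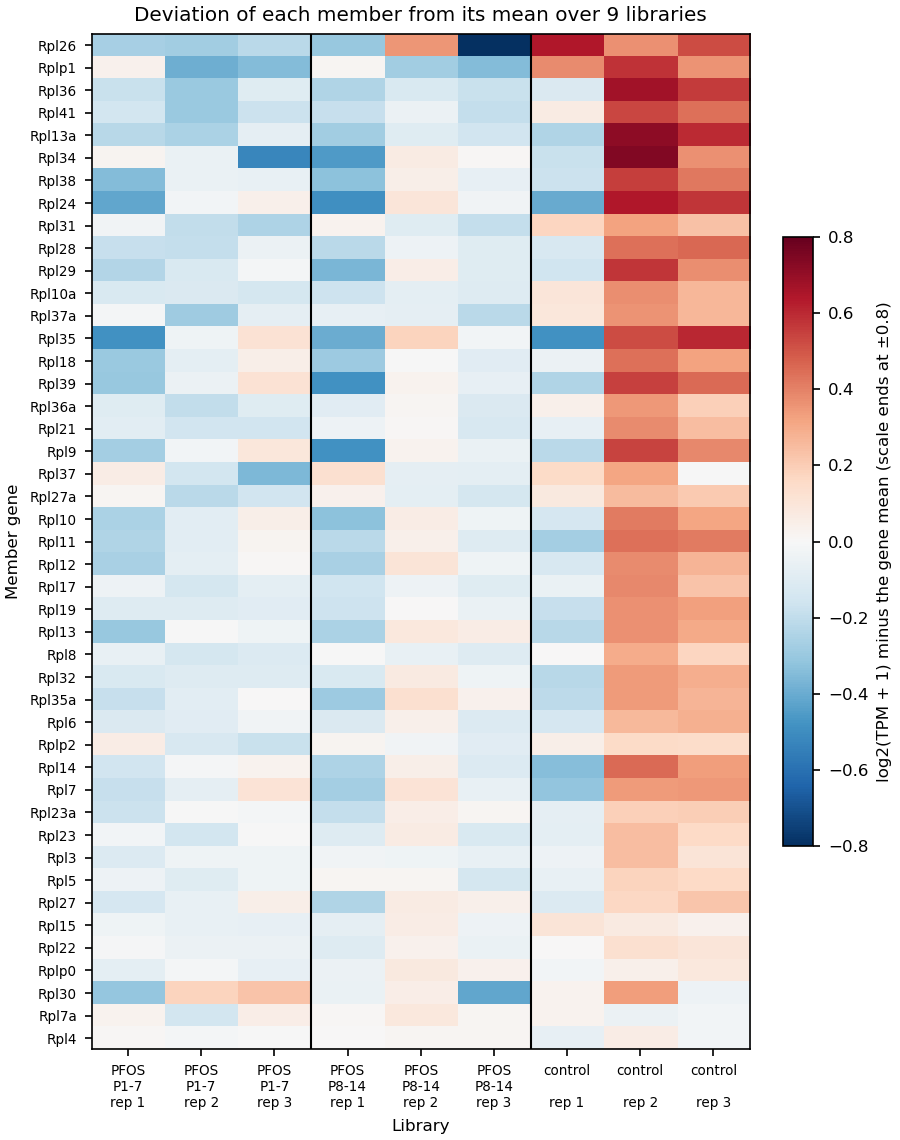
Deviation of log2(TPM + 1) from the gene's own mean over the 9 libraries (colour, red above and blue below the mean, scale ends at ±0.8), with genes down the page and libraries across, PFOS P1-7, PFOS P8-14 and control from left to right. Control replicates 2 and 3 are red in nearly every row, with 44 and 41 of 45 genes above their own mean, and control replicate 1 is above the mean in 15.

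The order of the genes by level was nearly the same in every library, with a Spearman rho between 0.933 and 0.997 over the 36 pairs of libraries (45 genes each, given as a description). Rpl38 had the highest mean over the 9 libraries and Rpl34 the lowest, 13 genes were above 1000 TPM on average and 4 were below 250 TPM. Rpl38 encodes a protein whose loss in the Tail-short mouse changes the body pattern of the axial skeleton. It had 1471, 1803 and 1795 TPM in PFOS P1-7, 1491, 1931 and 1784 TPM in PFOS P8-14, and 1661, 2739.8 and 2508 TPM in control. Control replicate 1 lay among the exposed libraries and the other controls above all of them. The log2 difference was -0.42 in PFOS P1-7 (SE 0.18, limma adjusted p = 0.266) and -0.38 in PFOS P8-14 (SE 0.18, limma adjusted p = 0.461).

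The lateral stalk is built from Rplp0, which anchors it, and from dimers of the acidic proteins Rplp1 and Rplp2, whose tails bind the elongation factor GTPases; Rpl12 sits at its base. Its members did not differ by like amounts. Rplp1 had 1648, 1230.3 and 1267 TPM in PFOS P1-7, 1627, 1332 and 1267 TPM in PFOS P8-14, and 2099.6, 2403 and 2065 TPM in control. Every control library was above every exposed one. The log2 difference of Rplp1 was -0.67 in PFOS P1-7 (SE 0.14, limma adjusted p = 0.181) and -0.64 in PFOS P8-14 (SE 0.14, limma adjusted p = 0.424), the smallest unadjusted p of any member in both comparisons. Without control replicate 1, the adjusted p of Rplp1 passed 0.05 in both.

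Rplp2, its partner in the dimer, had 1807, 1586 and 1533 TPM in PFOS P1-7, 1759, 1697 and 1629.6 TPM in PFOS P8-14, and 1788, 1924 and 1919 TPM in control. The PFOS P8-14 libraries lay below all controls by a narrow margin, and PFOS P1-7 replicate 1 lay above control replicate 1. The log2 difference was -0.20 in PFOS P1-7 (SE 0.09, limma adjusted p = 0.274) and -0.15 in PFOS P8-14 (SE 0.09, limma adjusted p = 0.513). The ratio of Rplp1 to Rplp2 TPM was therefore 0.912, 0.776 and 0.826 in PFOS P1-7, 0.925, 0.785 and 0.778 in PFOS P8-14, and 1.174, 1.249 and 1.076 in control. Rplp1 was the more abundant of the pair in every control library and the less abundant in every exposed library. This ratio was looked at because both proteins enter the stalk in equal numbers, and it was not tested as a value of its own. It reuses the Rplp1 values, which already separated the groups alone, so it is not a separate observation.

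Rplp0 had 643, 669 and 646 TPM in PFOS P1-7, 655, 714 and 693 TPM in PFOS P8-14, and 668, 697 and 717 TPM in control. The groups overlapped, and the log2 differences were -0.09 in PFOS P1-7 (SE 0.07, limma adjusted p = 0.487) and -0.01 in PFOS P8-14 (SE 0.07, limma adjusted p = 0.940), the second turning to 0.02 after quantile normalization and to 0.04 after removal of trends on length and GC. The ratio of Rplp1 to Rplp0 TPM was 2.565, 1.839 and 1.960 in PFOS P1-7, 2.485, 1.864 and 1.828 in PFOS P8-14, and 3.145, 3.446 and 2.880 in control. It did not overlap either, and it too reuses the Rplp1 values. Rpl12 had 800.3, 907 and 963 TPM in PFOS P1-7, 801, 1028 and 935 TPM in PFOS P8-14, and 875, 1243 and 1154 TPM in control. Here control replicate 1 fell among the exposed libraries. The log2 difference of Rpl12 was -0.28 in PFOS P1-7 (SE 0.14, limma adjusted p = 0.321) and -0.23 in PFOS P8-14 (SE 0.14, limma adjusted p = 0.521).

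**Figure D4:**
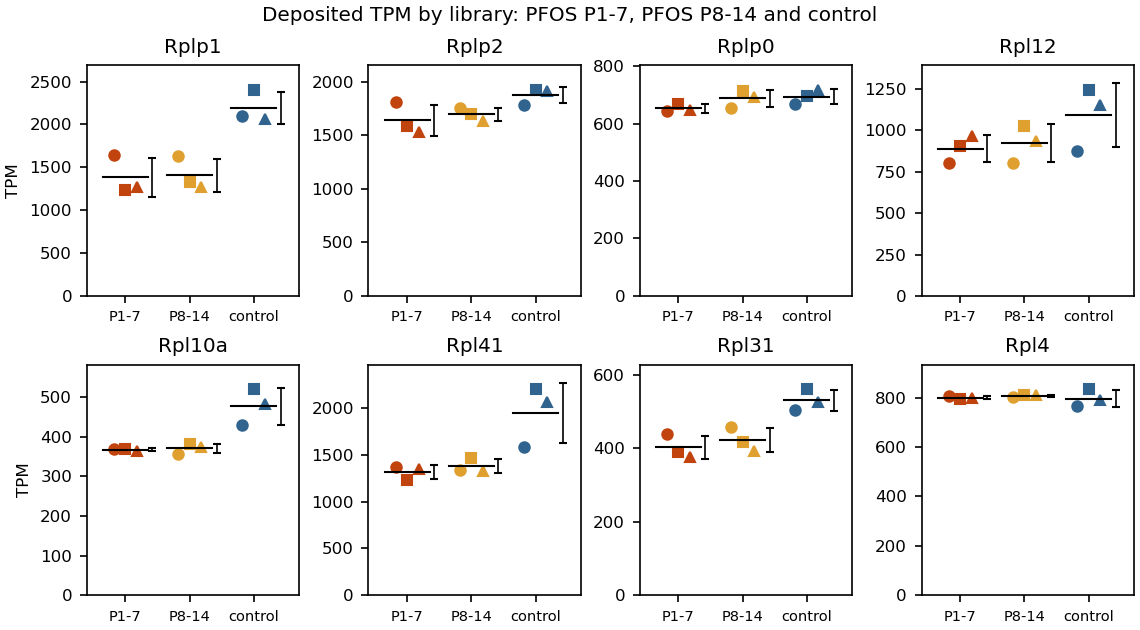
Deposited TPM (vertical axis, from 0) of 8 genes in each library, PFOS P1-7, PFOS P8-14 and control from left to right; circles, squares and triangles are replicates 1, 2 and 3, lines are group means and bars the SD. Rplp1, Rpl10a, Rpl41 and Rpl31 have every control above every exposed library, Rplp2, Rplp0 and Rpl12 do not, and Rpl4 lies between 764 and 834 TPM in all 9 libraries.

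Rpl10a forms the L1 stalk, on the opposite side of the subunit, which moves spent tRNA out of the exit site. It had 369, 369.6 and 363 TPM in PFOS P1-7, 357, 380.5 and 374 TPM in PFOS P8-14, and 429, 519.9 and 482 TPM in control. Both exposed groups were tightly grouped and every control was above them. The log2 difference was -0.37 in PFOS P1-7 (SE 0.08, limma adjusted p = 0.181) and -0.36 in PFOS P8-14 (SE 0.08, limma adjusted p = 0.424).

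Of the proteins that reach towards the peptidyl transferase centre, Rpl3, Rpl8 and Rpl10, all 3 were lower in both exposed groups, with a median log2 difference of -0.26 in PFOS P1-7 and -0.21 in PFOS P8-14. Rpl8 was the only one of them at an unadjusted p below 0.05, in both groups, with 936 ± 26.8 TPM in PFOS P1-7, 967 ± 32.7 TPM in PFOS P8-14 and 1125 ± 116 TPM in control (SD, n = 3 each). The margin of Rpl8 was narrow in PFOS P8-14, where the highest library had 1001 TPM and the lowest control 1006 TPM. Rpl5 and Rpl11, which carry the 5S ribosomal RNA into the subunit and, outside it, bind the p53 regulator Mdm2, had a median of -0.22 in PFOS P1-7 and -0.21 in PFOS P8-14. Neither of the pair reached an unadjusted p below 0.05 in either group. Rpl11 averaged 900.5 ± 82.1 TPM in PFOS P1-7, 904 ± 80.4 TPM in PFOS P8-14 and 1128 ± 288 TPM in control, the control spread being set by replicate 1 at 796 TPM.

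The exit tunnel is lined or ringed at its mouth by 9 members: Rpl4, Rpl17, Rpl19, Rpl22, Rpl23a, Rpl26, Rpl31, Rpl35 and Rpl39. Their median log2 difference was -0.27 in PFOS P1-7 and -0.28 in PFOS P8-14, with 8 of 9 lower in each and 3 of 9 at an unadjusted p below 0.05 in each (Rpl17, Rpl26 and Rpl31), of which Rpl26 shares reads with its copy. Of all tested genes, 5.79% in PFOS P1-7 and 4.65% in PFOS P8-14 were lower at that threshold. Rpl31, at the tunnel mouth, had 439, 391 and 378 TPM in PFOS P1-7, 458, 419 and 392.5 TPM in PFOS P8-14, and 504, 562 and 528 TPM in control. Every control was above every exposed library. Its log2 difference was -0.40 in PFOS P1-7 (SE 0.09, limma adjusted p = 0.181) and -0.33 in PFOS P8-14 (SE 0.09, limma adjusted p = 0.426). Rpl35, next to which the signal recognition particle docks, had the widest spread within control of this group, at 1428 ± 516 TPM. It had 835, 1141 and 1263 TPM in PFOS P1-7, 885, 1322 and 1148 TPM in PFOS P8-14, and 835, 1677 and 1772 TPM in control. Replicate 1 was the lowest library of every group for this gene.

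Rpl4, which reaches the narrowest point of the tunnel, was the steadiest member, with a coefficient of variation of 2.34% over the 9 libraries. It had 807, 793 and 798 TPM in PFOS P1-7, 801, 809.7 and 809.7 TPM in PFOS P8-14, and 764, 834 and 789 TPM in control. The groups overlapped fully. Its log2 difference was 0.01 in PFOS P1-7 (SE 0.07, 95% interval -0.14 to 0.16, limma adjusted p = 0.960) and 0.02 in PFOS P8-14 (SE 0.07, 95% interval -0.13 to 0.17, limma adjusted p = 0.903), and with median-of-ratios scaling it turned to -0.08 and -0.04. Rpl7a, a protein of the subunit body, had 862, 764 and 877 TPM in PFOS P1-7, 851, 898 and 855 TPM in PFOS P8-14, and 862, 820.1 and 835 TPM in control. Its groups overlapped as well. The log2 difference of Rpl7a was -0.01 in PFOS P1-7 (SE 0.08, limma adjusted p = 0.955), turning to 0.05 after quantile normalization, and 0.05 in PFOS P8-14 (SE 0.08, limma adjusted p = 0.790), turning to -0.01 with median-of-ratios scaling. Rpl7a was also 1 of 3 members that were lower in control replicate 2 than in control replicate 1, whereas 13 members were at least 1.5 times higher in replicate 2.

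The proteins of 4 members, Rpl23, Rpl24, Rpl30 and Rpl41, contact the small subunit across the bridges that hold the ribosome together. All 4 were lower in both exposed groups, with a median of -0.28 in PFOS P1-7 and -0.33 in PFOS P8-14, and 1 of 4 was at an unadjusted p below 0.05. That gene was Rpl41, whose product of 25 residues is the smallest protein of the mammalian ribosome and lies buried between the subunits. Its coding sequence of 78 bases, on chromosome 10 in GRCm38, is given because it shows how basic these proteins are: the 17 codons for arginine or lysine are in capitals.
Rpl41: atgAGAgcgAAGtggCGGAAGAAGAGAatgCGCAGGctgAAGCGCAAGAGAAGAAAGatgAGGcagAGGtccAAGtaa

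Rpl41 had 1371, 1237 and 1347 TPM in PFOS P1-7, 1339, 1469 and 1334 TPM in PFOS P8-14, and 1589, 2205 and 2067 TPM in control. All controls were above all exposed libraries, control replicate 1 by the smallest margin. The log2 difference was -0.55 in PFOS P1-7 (SE 0.12, limma adjusted p = 0.181) and -0.49 in PFOS P8-14 (SE 0.12, limma adjusted p = 0.424). Rpl24 had a similar fold with a much wider spread, at 644 ± 105 TPM in PFOS P1-7, 643 ± 131 TPM in PFOS P8-14 and 886 ± 310 TPM in control (SD, n = 3 each). In Rpl24 replicate 1 was the lowest library of each group, and its log2 differences of -0.40 and -0.41 did not reach an unadjusted p below 0.05.

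The remaining 22 members are spread over the body of the subunit. In PFOS P1-7 all 22 were lower (median -0.30), and in PFOS P8-14 21 of 22 were (median -0.25). At an unadjusted p below 0.05, 10 of the 22 were lower in PFOS P1-7 and 9 in PFOS P8-14, beside 5.79% and 4.65% of all tested genes. The largest difference among them in both groups was that of Rpl36, at 1011 ± 70.5 TPM in PFOS P1-7, 1018 ± 43.2 TPM in PFOS P8-14 and 1535 ± 414 TPM in control, followed by Rpl13a, known in human cells also as part of an interferon-dependent silencing complex, at 586 ± 39.9 TPM in PFOS P1-7, 589.5 ± 38.1 TPM in PFOS P8-14 and 886 ± 283 TPM in control (SD, n = 3 each). Rpl36 and Rpl13a were singled out after their values were seen, and in both control replicate 1, at 1063 and 563 TPM, was inside the exposed range. Rpl37a, a zinc-binding protein, had all controls above the exposed libraries, at 614 ± 58.7 TPM in PFOS P1-7, 615 ± 36.6 TPM in PFOS P8-14 and 789 ± 72.3 TPM in control. Its log2 difference was -0.36 in both (SE 0.10, limma adjusted p = 0.188 in PFOS P1-7 and 0.426 in PFOS P8-14). Rpl15, an RNA-binding protein of the subunit core, had each PFOS P1-7 library below each control with a small difference, at 269 ± 2.96 TPM in PFOS P1-7, 276 ± 13.3 TPM in PFOS P8-14 and 293 ± 6.81 TPM in control.

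Processed copies make some of these values uncertain. Retrocopies of ribosomal protein mRNAs are common in mammalian genomes, and reads that fit both a gene and its copy can be assigned to either. Of the 45 members, 10 had a copy in the table with at least 90% identity over at least 80% of the coding sequence, and in 4 the copy carried more than 10% of the level of the gene. In 3 of these the copy was listed far above the gene: Rpl26 had a mean of 82.2 TPM against 1361 TPM for Gm15772 (99.5% identity), Rpl30 had 97.2 TPM against 1199 TPM for Gm12191 (99.7%), and Rpl34 had 30.8 TPM against 965.6 TPM for Rpl34-ps1 (99.4%). In the fourth, Rpl21 had 383 TPM against 39.2 TPM for BC004004. The low rank of Rpl26, Rpl30 and Rpl34 among the members therefore rests on how reads were divided.

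For Rpl26, a tunnel protein, the division decides the comparison. Listed alone it had 65.0, 64.3 and 67.2 TPM in PFOS P1-7, 63.1, 100.2 and 43.9 TPM in PFOS P8-14, and 122, 101 and 113 TPM in control, without overlap. Summed with its copy it had 1151, 1415 and 1459 TPM in PFOS P1-7, 1125, 1508 and 1374 TPM in PFOS P8-14, and 1242, 1910.3 and 1805 TPM in control. The sum averaged 1342 ± 167 TPM in PFOS P1-7, 1336 ± 194 TPM in PFOS P8-14 and 1652 ± 359.5 TPM in control (SD, n = 3 each). It put control replicate 1 among the exposed libraries, the arrangement of 30 other members. Rpl34 had 30.2, 28.6 and 20.4 TPM in PFOS P1-7, 21.4, 31.2 and 29.9 TPM in PFOS P8-14, and 26.2, 50.2 and 38.65 TPM in control, with a log2 difference of -0.49 in PFOS P1-7 (SE 0.24, limma adjusted p = 0.297) and -0.44 in PFOS P8-14 (SE 0.24, limma adjusted p = 0.485). Its sum with the copy averaged 844 ± 178 TPM in PFOS P1-7, 885 ± 229 TPM in PFOS P8-14 and 1261 ± 482 TPM in control. Alone and as a sum, Rpl34 had control replicate 1 inside the exposed range.

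Between the exposure windows the members differed little. In PFOS P8-14 against PFOS P1-7, 33 of 45 members were higher and 12 lower, beside 61.2% of all tested genes that were lower. The median over members was 0.02, beside -0.03 over all tested genes, and no member differed by more than 0.17 on the log2 scale, the value of Rpl30, whose reads are divided with a copy. limma called 0 members and 0% of all tested genes at an adjusted p below 0.05, and no member reached an unadjusted p below 0.05, beside 0.635% of all tested genes that were lower and 0.467% that were higher. The median half-width of a 95% interval was 0.30 on the log2 scale. An estimated difference below that size would not reach an unadjusted p below 0.05 in a typical member. The adjusted threshold is stricter, so larger differences could also be missed. Without PFOS P8-14 replicate 2, the library of that group with the highest share, 30 members were lower and the median was -0.03. No member separated the exposed groups without overlap, beside 4.15% of all tested genes that were lower and 1.9% that were higher.

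Rpl37 had the smallest p of this comparison. It had 508, 442 and 441 TPM in PFOS P8-14 and 485, 419 and 363 TPM in PFOS P1-7, against 516, 578 and 464 TPM in control. The exposed groups overlapped, with a log2 difference of 0.14 (SE 0.12, 95% interval -0.13 to 0.41, limma adjusted p = 0.9998). Rplp0, whose values are given above, differed by 0.07 (SE 0.07) and Rpl31 by 0.07 (SE 0.09), both with the same adjusted p from limma. Rpl30, a bridge protein, had 92.5, 99.5 and 71.8 TPM in PFOS P8-14 and 77.3, 109 and 113 TPM in PFOS P1-7, against 97.9, 122 and 93.3 TPM in control. All the groups overlapped, and the log2 difference between the windows was -0.17 (SE 0.17, 95% interval -0.55 to 0.21, limma adjusted p = 0.9998). Summed with its copy Gm12191, Rpl30 had 1166, 1266 and 1237 TPM in PFOS P8-14 and 1228, 1238 and 1290.2 TPM in PFOS P1-7, against 1181, 1601 and 1459 TPM in control. As a sum the exposed groups overlapped, control replicates 2 and 3 lay above all 6 exposed libraries and control replicate 1 among them. The place of Rpl30 among the 6 genes outside the patterns above therefore also rests on how reads were divided.

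Shorter members tended to have the larger differences. Member transcripts are short, with a median of 723.5 bases (GENCODE M21) against 2194 over the tested genes, and range from 367.5 bases for Rpl38 to 2048 for Rpl22. Across the 45 members, transcript length and the log2 difference had a Spearman rho of 0.52 in PFOS P1-7 and 0.53 in PFOS P8-14, given as a description because the points share the same 9 libraries. GC content gave -0.39 and -0.32, and mean level -0.14 and -0.09. The libraries themselves differed in how levels went with length over all tested genes: the rho of the deviation from the gene mean with length was 0.11, 0.36 and 0.13 in PFOS P1-7, 0.15, -0.15 and 0.23 in PFOS P8-14, and 0.15, -0.34 and -0.40 in control. Control replicates 2 and 3, the libraries with the highest member levels, had the most negative values, and control replicate 1 a positive one. After removal of each library's trend on length and GC, the median member difference was -0.28 in PFOS P1-7 and -0.23 in PFOS P8-14. Without that step it was -0.29 and -0.25. The median over all genes tested moved as well, from 0.09 in PFOS P1-7 and 0.06 in PFOS P8-14 to 0.0048 in both. The distance between members and all genes was therefore smaller after that step.

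**Figure D5:**
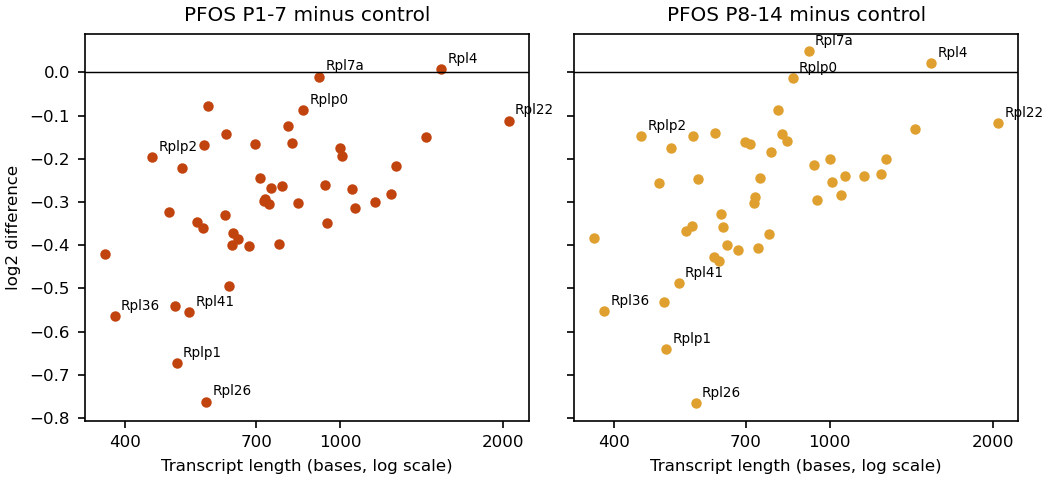
Log2 difference on the log2(TPM + 1) scale (vertical axis) of the 45 genes against transcript length in bases (horizontal axis, log scale), for PFOS P1-7 minus control (left) and PFOS P8-14 minus control (right), 1 point per gene. Short transcripts such as Rplp1, Rpl36 and Rpl41 lie low and long ones such as Rpl4 and Rpl22 near 0 (Spearman rho 0.52 and 0.53), while Rplp2, at 449 bases, lies at -0.20 and -0.15. The lowest point in both panels is Rpl26, at 566 bases, with -0.76 and -0.77, and its reads are divided with a copy.

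The start regions of the genes were read for short motifs that the members share. RefSeq (GRCm38.p6) gave windows from 250 bases before to 50 after the start for 34 of the 45 members. CGGAAGT on either strand, a core bound by GABP and other ETS factors, was in 11 of the 34 (32.4%), against 7.20% of 27025 genes. CTTTC on the coding strand within 30 bases of the start, a simple stand-in for a TOP tract, was in 16 of 34 (47.1%), against 9.18% of genes. ATGGCG on either strand, the core of the YY1 motif, was in 10 of 34 (29.4%), against 10.2% of genes, and TATAAA on either strand in 4 of 34 (11.8%), against 15.7%. Among the 7 matched genes with every control above every exposed library, 5 had CGGAAGT and 3 had CTTTC; among the other 27 the counts were 6 and 13. Rpl26 is 1 of the 7 and has both motifs, but as a sum with its copy it does not separate the groups. A match describes letters only, and binding was not measured.

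The windows of 6 genes, from 40 bases before to 20 after the start, are shown as examples of each motif, which is in capitals; the genes were chosen after their values were seen. Rpl31 (chr1:39367811-39367870, plus strand), Rpl37a (chr1:72711220-72711279, plus strand) and Rpl41 (chr10:128549149-128549208, minus strand), with log2 differences from -0.33 to -0.55, carry CGGAAGT or its reverse complement. Rplp2 (chr7:141447611-141447670, plus strand), Rpl7a (chr2:26910767-26910826, plus strand) and Rpl4 (chr9:64173347-64173406, plus strand), with differences from -0.20 to 0.05, carry CTTTC. The CTTTC motif did not sort the members by difference. It was also found for Rpl13a (-0.54 in PFOS P1-7), Rpl38 (-0.42), Rpl28 (-0.40), Rpl10a (-0.37) and Rpl26 (-0.76). Most members with CGGAAGT were at or below the median member difference of -0.29 in PFOS P1-7. Rpl19 (-0.27) and Rpl23 (-0.17) also had this motif and were above that median. Whether this motif goes with larger differences was not tested.
Rpl31: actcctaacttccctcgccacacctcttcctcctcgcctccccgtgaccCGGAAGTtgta
Rpl37a: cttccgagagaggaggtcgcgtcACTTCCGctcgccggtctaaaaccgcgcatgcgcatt
Rpl41: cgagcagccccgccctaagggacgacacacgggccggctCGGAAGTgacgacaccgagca
Rplp2: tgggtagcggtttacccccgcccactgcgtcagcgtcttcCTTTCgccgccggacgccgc
Rpl7a: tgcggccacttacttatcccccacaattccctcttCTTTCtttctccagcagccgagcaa
Rpl4: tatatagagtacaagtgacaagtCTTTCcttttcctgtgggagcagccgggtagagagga

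The other protein genes of the ribosome were mostly lower as well, and lists of genes that make or regulate ribosomes had medians near 0. Of the 34 small subunit genes, 34 were lower in PFOS P1-7 (median -0.29, 15 at an unadjusted p below 0.05) and 32 in PFOS P8-14 (median -0.26, 13 at an unadjusted p below 0.05). Of all tested genes, 5.79% in PFOS P1-7 and 4.65% in PFOS P8-14 were lower at that threshold. Rps27 had the smallest p among those higher in PFOS P8-14, with a log2 difference of 0.24 (limma adjusted p = 0.577). Of 8 large subunit genes and paralogs outside the 45, 5 were tested and all 5 were lower in both groups, with medians of -0.32 in PFOS P1-7 and -0.24 in PFOS P8-14. Rpl22l1, a paralog of Rpl22, averaged 114.5 ± 22.7 TPM in PFOS P1-7, 101 ± 21.0 TPM in PFOS P8-14 and 204 ± 74.3 TPM in control (SD, n = 3 each).

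Translation factors whose mRNAs also carry a TOP tract (16 genes) had medians of -0.02 in PFOS P1-7 and 0.03 in PFOS P8-14, with 9 and 6 of 16 lower. By unadjusted p below 0.05, 3 were lower and 3 higher in PFOS P1-7, while PFOS P8-14 had 1 lower and 2 higher. Over all tested genes, 5.79% were lower and 12.5% higher in PFOS P1-7, and 4.65% lower and 6.33% higher in PFOS P8-14. Among the lower ones were the elongation factor subunits Eef1b2, at 135 ± 3.82 TPM in PFOS P1-7 against 163.5 ± 7.66 TPM in control, and Eef1g, at 284 ± 0.03 TPM in PFOS P8-14 against 336 ± 22.1 TPM in control (SD, n = 3 each). Npm1, the nucleolar chaperone of ribosome assembly, led the higher ones in both, with 287 ± 11.2 TPM in PFOS P1-7 and 286 ± 12.3 TPM in PFOS P8-14 against 235 ± 16.5 TPM in control. The 36 assembly and export factors of the large subunit had medians of 0.03 in PFOS P1-7 and 0.04 in PFOS P8-14, and 2 of them were lower and 3 higher in PFOS P1-7, 1 lower and 3 higher in PFOS P8-14, by unadjusted p below 0.05. The shares of all tested genes just given stand beside these counts too. Nop10, of the pseudouridylation complex, led the lower ones, with 115 ± 11.0 TPM in PFOS P1-7 and 124 ± 7.79 TPM in PFOS P8-14 against 147 ± 6.13 TPM in control. Tma16, a 60S assembly factor known from yeast, led the higher ones, with 18.7 ± 1.83 TPM in PFOS P1-7 and 20.1 ± 1.10 TPM in PFOS P8-14 against 13.0 ± 1.92 TPM in control.

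Of 13 genes of RNA polymerase I, which makes the ribosomal RNA precursor, 12 were tested, with medians of -0.01 in PFOS P1-7 and -0.07 in PFOS P8-14 and 1 gene, Polr1a, at an unadjusted p below 0.05, higher in PFOS P1-7 (log2 difference 0.38, SE 0.14, limma adjusted p = 0.230). Polr1a had the smallest p among the higher ones in PFOS P8-14 too, at 0.31, and Taf1c (-0.27 in PFOS P1-7) and Polr1b (-0.21 in PFOS P8-14) had the smallest p among the lower ones. The 15 genes of mTORC1 and its targets had medians of 0.13 in PFOS P1-7 and 0.07 in PFOS P8-14, near those of all tested genes. Akt1s1, an mTORC1 inhibitor subunit, was the 1 member of that list at an unadjusted p below 0.05, lower in both groups, at 72.3 ± 2.36 TPM in PFOS P1-7 and 70.7 ± 4.19 TPM in PFOS P8-14 against 84.1 ± 5.81 TPM in control. Rps6kb1 (0.18 in PFOS P1-7) and Deptor (0.66 in PFOS P8-14) had the smallest p among the higher ones. No gene of these lists was called by limma at an adjusted p below 0.05.

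Markers of other cell types differed between the groups as follows, and their part in the member differences was not tested except where a value is given. All 12 choroid plexus genes were higher in both exposed groups, with medians of 1.63 in PFOS P1-7 and 1.54 in PFOS P8-14 and 0 at an unadjusted p below 0.05. Their sum was 182.1 to 12912 TPM in PFOS P1-7, 267 to 11040 TPM in PFOS P8-14 and 155.5 to 11002 TPM in control, and none of the 12 was at 0 in all libraries. With a choroid plexus score as a covariate, the median member difference was -0.29 in PFOS P1-7 and -0.27 in PFOS P8-14. All 8 myelin genes were higher as well, with medians of 0.25 in PFOS P1-7 and 0.13 in PFOS P8-14. The 8 endothelial genes had medians of 0.08 in PFOS P1-7 and 0.05 in PFOS P8-14, but their sum was lower in both exposed groups without overlap, at 277.8 to 328.7 TPM in PFOS P1-7, 306.5 to 318.8 TPM in PFOS P8-14 and 330.7 to 366.7 TPM in control. Cldn5, a tight junction gene, was the 1 endothelial gene at an unadjusted p below 0.05, lower in both, with log2 differences of -0.43 in PFOS P1-7 (limma adjusted p = 0.181) and -0.30 in PFOS P8-14 (limma adjusted p = 0.426). The 8 microglial genes had medians of 0.01 in PFOS P1-7 and -0.05 in PFOS P8-14, with 3 of 8 lower in each and 1 higher in PFOS P1-7 at an unadjusted p below 0.05. Of all tested genes, 5.79% in PFOS P1-7 and 4.65% in PFOS P8-14 were lower at that threshold, and 12.5% in PFOS P1-7 were higher. The complement gene C1qa had the smallest p among the lower ones, with -0.32 in PFOS P1-7 and -0.29 in PFOS P8-14. The microglial sum overlapped between groups, at 369.8 to 415.4 TPM in PFOS P1-7, 367.6 to 388.7 TPM in PFOS P8-14 and 357.6 to 428.6 TPM in control. Medians were, for 5 tested thalamic genes -0.18 and -0.05, for 8 neural progenitor genes 0.14 and 0.19, for 4 red blood cell genes 0.14 and -0.68, and for the 10 hippocampal genes 0.23 and 0.20, each in PFOS P1-7 and PFOS P8-14.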

How the data were processed

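Stranded, poly(A)-selected libraries from hippocampal RNA were made with the TruSeq stranded mRNA kit, per the labels' protocols. The authors deposited 1 table of TPM per gene symbol, for which the submitters' processing notes name mm10, RSEM 1.3.3, STAR 2.5.3a, fastp 0.21.0 and bcl2fastq. Their annotation was not given in the sources used here. RSEM divides reads that map to several genes by an estimate, which bears on members with near-identical copies.

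Genes reaching 1 TPM in 3 or more of the 9 samples were tested, in R 4.3.3 with limma 3.58.1 on log2(TPM + 1), as 1 mean per group over all 9 samples, moderated with a mean-variance trend, two-sided, with Benjamini-Hochberg adjustment over 14336 genes and a threshold of 0.05. Differences on this scale understate the change of low genes. The code was tested on simulated data. TPM keep no depth, so no counting interval was computed. Columns were assigned to groups by the sample descriptions, and 0 columns were left out.

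Members given sample by sample were the 4 with the smallest p in each comparison, the stalk, the highest and lowest by mean, and those against the median's sign; Rpl26, Rpl35 and the sums with copies were added after their values were seen; of other lists, the smallest p in each direction, apart from some genes that are not reported here. Members and lists were chosen with earlier results of these data known. Lengths came from GENCODE M21, for 99.1% of tested genes, coordinates from RefSeq (GRCm38.p6), and copies from BLAST+ 2.17.0 searches of coding sequences. Figures used matplotlib 3.10.9. Replicate numbers are shared across groups, but same-numbered samples did not all deviate together. The alternatives were 2 other pseudocounts, 2 other filters, 2 other scalings, a replicate block, the compared groups alone, array weights, 2 other moderations, removal of length and GC trends, a choroid plexus covariate, and leaving out each sample. After seeing the data, 2 that leave out control replicate 1 with another scaling or trend removal were added.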

Additional observations from a re-analysis of the deposited data

How the results depend on the processing

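In PFOS P1-7 and PFOS P8-14 against control, the median member difference was below 0 under every alternative run. After quantile normalization it was -0.19 in PFOS P1-7 and -0.20 in PFOS P8-14, beside 0.0047 and 0.0011 over all tested genes. Leaving out 1 library gave -0.43 to -0.18 in PFOS P1-7 and -0.39 to -0.14 in PFOS P8-14, and 0.06 to -0.03 between the windows (PFOS P8-14 minus PFOS P1-7). With median-of-ratios scaling and without control replicate 1 the medians were -0.56 and -0.48. The number of members called lower by limma was 0 in both comparisons except in these settings: 28 in PFOS P1-7 and 17 in PFOS P8-14 with array weights, 0 to 31 and 0 to 24 over the libraries left out, 21 and 17 with length and GC trends removed and control replicate 1 left out, and 37 and 30 with median-of-ratios scaling and control replicate 1 left out. The number lower at an unadjusted p below 0.05 was 39 and 35 with array weights, 9 to 38 and 7 to 38 over the libraries left out, 36 and 35 with trends removed and control replicate 1 left out, and 42 and 39 with median-of-ratios scaling and control replicate 1 left out. It was 10 in PFOS P8-14 when the 2 compared groups were fitted alone, and 12 in each comparison after quantile normalization. Beside the called members, limma called lower 5.32% of all tested genes in PFOS P1-7 and 2.79% in PFOS P8-14 with array weights. Without control replicate 1 these shares were 4.48% and 3.41%, with trends also removed 4.34% and 3.66%, and with median-of-ratios scaling 8.17% and 5.63%. Shares of all genes at an unadjusted p are not given for these settings. The settings that leave out control replicate 1 together with another scaling or trend removal were chosen after seeing the data. The causes of these differences were not tested.

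With the replicate number as a block, the counts at an unadjusted p below 0.05 were 32 in PFOS P1-7 and 25 in PFOS P8-14. Shares of all tested genes at that threshold are not given for this setting, so these counts stand without a background. No member and 0 of the 14336 tested genes were called at an adjusted p below 0.05. Correlations of same-numbered samples' deviations from their group means ran from -0.47 to 0.53, and 4 of 9 samples correlated best with their own number. The labels state no pairing, and the main fit had no block. The libraries numbered 1 did share a trait. Over all tested genes, the rho of their deviation from the gene mean with GC was 0.21 in PFOS P1-7, 0.30 in PFOS P8-14 and 0.18 in control. In the other libraries it was -0.35 to 0.13. Whether the number stands for a shared batch was not tested.

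Reversals of sign were in members near 0, none of them called. In PFOS P1-7 against control, Rpl4 was -0.076 with median-of-ratios scaling, -0.021 with array weights, -0.052 with trends removed, -0.089 with trends removed and -0.14 with median-of-ratios scaling when control replicate 1 was also left out, and -0.021 to 0.042 over the libraries left out. Rpl7a was 0.052 with quantile normalization, 0.013 with array weights, 0.016 with trends removed, 0.044 with trends removed and control replicate 1 left out, and -0.047 to 0.052 over the libraries left out. In PFOS P8-14 against control, Rpl4 was -0.036 with median-of-ratios scaling, -0.0029 with array weights, -0.011 with trends removed, -0.048 with trends removed and -0.10 with median-of-ratios scaling when control replicate 1 was also left out, and -0.0076 to 0.055 over the libraries left out. Rpl7a was -0.0084 with median-of-ratios scaling of all libraries and -0.028 of those other than control replicate 1. Rplp0 was 0.023 with quantile normalization, 0.037 with trends removed, 0.0225 with trends removed and control replicate 1 left out, and -0.042 to 0.021 over the libraries left out. In PFOS P8-14 against PFOS P1-7, Rpl4 was -0.0012 with quantile normalization, and over the libraries left out Rpl12 was -0.036 to 0.14, Rpl38 -0.061 to 0.14, Rplp1 -0.076 to 0.17, Rpl7a -0.0034 to 0.096 and Rpl34 -0.11 to 0.22. Of the other alternatives for single genes, 709 kept their direction and their side of the threshold, and 46 passed the threshold with the same direction. TPM keep no depth, so what depth limits cannot be stated.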
